A study of Mus musculus with 18 samples.

Results

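The genes described here carry fatty acids from the blood across the capillary wall into heart muscle. They were chosen by name, with earlier results of these data known, as 10 of the 30072 genes in the deposited tables. Each symbol matched 1 Ensembl identifier. Lpl, Gpihbp1 and Angptl4 act on lipolysis at the capillary wall, Cd36 and Slc27a1 on uptake across membranes, Fabp3, Fabp4 and Fabp5 on transport inside cells, and Meox2 and Tcf15 are transcription factors of heart endothelium. All 10 were read in every mouse, with between 11 counts (the lowest mouse for Angptl4) and 55946 counts (the highest for Fabp3), and all 10 passed the filter of 0.23 CPM (counts scaled to the library total) in at least 6 mice that left 15054 genes for testing.

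Total RNA was sequenced from the septum between the ventricles of 18 adult CD-1 mice, an outbred strain, in 3 groups of 6 mice. The control mice had isoflurane anesthesia and computed tomography and were not irradiated. The other groups received a single dose of 25 Gy to the whole heart under the same anesthesia and imaging. They were sampled 2 or 6 weeks later (2 weeks or 6 weeks post-IR). The labels give no sampling time for the controls, so whether it matches that of either irradiated group is not known. The labels name both sexes and littermate controls without giving the sex of a mouse. All groups carried wild-type hearts, and Y-linked genes exceeded 1 CPM in 4 control mice, 3 mice at 2 weeks and 3 mice at 6 weeks.

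Totals ran from 12202900 to 15501002 estimated counts per mouse in the controls, from 12963009 to 14941606 at 2 weeks and from 11522979 to 14845178 at 6 weeks. Levels are given in CPM after scaling by trimmed mean of M-values (TMM), and 3 counts correspond to between 0.194 and 0.260 CPM in these mice. The share of counts from the 13 mitochondrially encoded genes moved with the groups, with medians of 23.2% in the controls, 20.2% at 2 weeks and 17.4% at 6 weeks, and the TMM factors ran from 0.844 to 0.991 in the controls and from 1.04 to 1.13 at 6 weeks. Defining markers of the tissue were present in each group. The summed level of 10 cardiomyocyte markers was 92445 to 124540.0 CPM in the controls, and that of 8 capillary endothelial markers was 625 to 804 CPM.

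The heart burns mainly fatty acids and takes most of them from triglycerides carried in blood lipoproteins. Cardiomyocytes make lipoprotein lipase, GPIHBP1 on the capillary endothelial cell carries it to the vessel lumen, and the fatty acids it frees enter and leave the endothelial cell with the help of CD36 and fatty acid binding proteins before the cardiomyocyte takes them up. MEOX2 and TCF15 act together in the endothelium of heart capillaries to raise genes of this route, Cd36 among them, and peroxisome proliferator-activated receptors (PPARs) regulate many of the same genes in both cell types.

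RefSeq promoter windows of the GRCm38.p6 build, 250 bases before to 50 bases after a gene start, matched 4 of the 10 genes. Fabp3, Cd36 and Meox2 had 1 window each and Slc27a1 had 3, for 6 windows in all, and none was found for Lpl, Gpihbp1, Angptl4, Fabp4, Fabp5 and Tcf15. The windows of Cd36 and Fabp3 are shown because both genes were lower after irradiation and because PPARs act on both. The Cd36 window lies at chr5:17835847-17836146 on the minus strand, inside the gene model of the annotation, which starts further upstream, and the Fabp3 window lies at chr4:130308488-130308787 on the plus strand. Capitals mark AGGTCA or its reverse complement, the half-site bound by PPAR and related nuclear receptors.
Cd36 promoter: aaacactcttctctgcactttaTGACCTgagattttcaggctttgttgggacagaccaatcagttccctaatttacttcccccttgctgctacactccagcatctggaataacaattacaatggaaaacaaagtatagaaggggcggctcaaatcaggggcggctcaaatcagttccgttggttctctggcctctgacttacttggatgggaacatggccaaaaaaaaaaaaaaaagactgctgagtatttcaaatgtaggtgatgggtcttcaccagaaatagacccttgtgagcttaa
Fabp3 promoter: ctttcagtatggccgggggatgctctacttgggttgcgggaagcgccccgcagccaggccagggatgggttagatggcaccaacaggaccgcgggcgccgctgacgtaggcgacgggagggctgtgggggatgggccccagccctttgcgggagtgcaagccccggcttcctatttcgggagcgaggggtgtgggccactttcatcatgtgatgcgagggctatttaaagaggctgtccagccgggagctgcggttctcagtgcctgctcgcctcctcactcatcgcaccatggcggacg
The Cd36 window held 1 half-site, 228 bases before the gene start, and the other 5 windows held none on either strand. Half-sites occurred in 16.3% of the 32851 windows of this length. A direct repeat of the half-site with 1 base between the copies (DR1), the full PPAR element, was in none of the 6 windows and in 0.0396% of all windows. The E-box CANNTG, the core bound by TCF15 and other basic helix-loop-helix factors, was in all 6 windows and in 72.3% of all windows. These matches describe letters in a window only. The GC content was 43.0% in the Cd36 window and 65.0% in the Fabp3 window, with a median of 52.7% over all windows.

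Per length and in the controls, the 10 genes spanned a wide range of TPM (transcript abundance scaled to length and library). Fabp3, the main fatty acid binding protein of cardiomyocytes, was the most abundant with 6009 ± 761 TPM (mean ± SD, n = 6). Fabp4 (843 ± 118 TPM), Lpl (572 ± 84.2 TPM) and Cd36 (362 ± 44.6 TPM) followed. The ranges of Fabp4 (699.9 to 989 TPM) and Lpl (481 to 722 TPM) overlapped, and that of Cd36 (294 to 431 TPM) lay below both. Gpihbp1 was at 75.6 ± 11.7 TPM, and Slc27a1 (31.3 ± 4.61 TPM) and Fabp5 (20.7 ± 8.91 TPM) were not separated from each other by their ranges. Meox2 (11.8 ± 2.78 TPM) and Tcf15 (11.1 ± 4.08 TPM) were not separated by their ranges either, and Angptl4 was lowest with 0.863 ± 0.600 TPM. TPM is used here only to order genes within the controls.

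At 2 weeks post-IR, the levels of Cd36 and Fabp4 fell and none of the 10 genes rose. These 2 of 10 genes had an adjusted p under 0.05 (edgeR quasi-likelihood test with Benjamini-Hochberg adjustment over the 15054 genes), beside 5.02% of all genes tested. In the same comparison 3.09% of all genes were higher and 1.93% were lower, and 5 of the 10 genes had an unadjusted p under 0.05, as did 20.4% of all genes. At 6 weeks post-IR, 6 of the 10 genes passed, beside 25.0% of all genes. Cd36, Slc27a1, Fabp3 and Tcf15 were lower, where 11.5% of all genes were lower, and Fabp5 and Angptl4 were higher, where 13.5% of all genes were higher. All 10 genes had an unadjusted p under 0.05 at 6 weeks, as did 36.2% of all genes. The median log2 fold change of the 10 genes was -0.25 at 2 weeks and -0.22 at 6 weeks, beside -0.00 and -0.02 for all genes tested. Both comparisons share the same 6 controls.

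Between 2 and 6 weeks post-IR, none of the 10 genes passed the edgeR test, beside 5.33% of all genes (3.31% higher and 2.01% lower). Of the 10 genes, 3 had an unadjusted p under 0.05 (Slc27a1, Fabp5 and Tcf15), beside 21.3% of all genes, and DESeq2 and limma voom also called 0. Summing the counts of Fabp5 with those of the pseudogene Gm6166 changed this to 1 gene, as described under Fabp5. In TMM-scaled CPM of the 10 genes as deposited, the groups did not overlap for Cd36 at 2 weeks. They overlapped for every other gene and comparison. Of all genes, 3.24% did not overlap at 2 weeks, 9.23% at 6 weeks against controls and 3.54% at 6 weeks against 2 weeks.

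**Figure D1:**
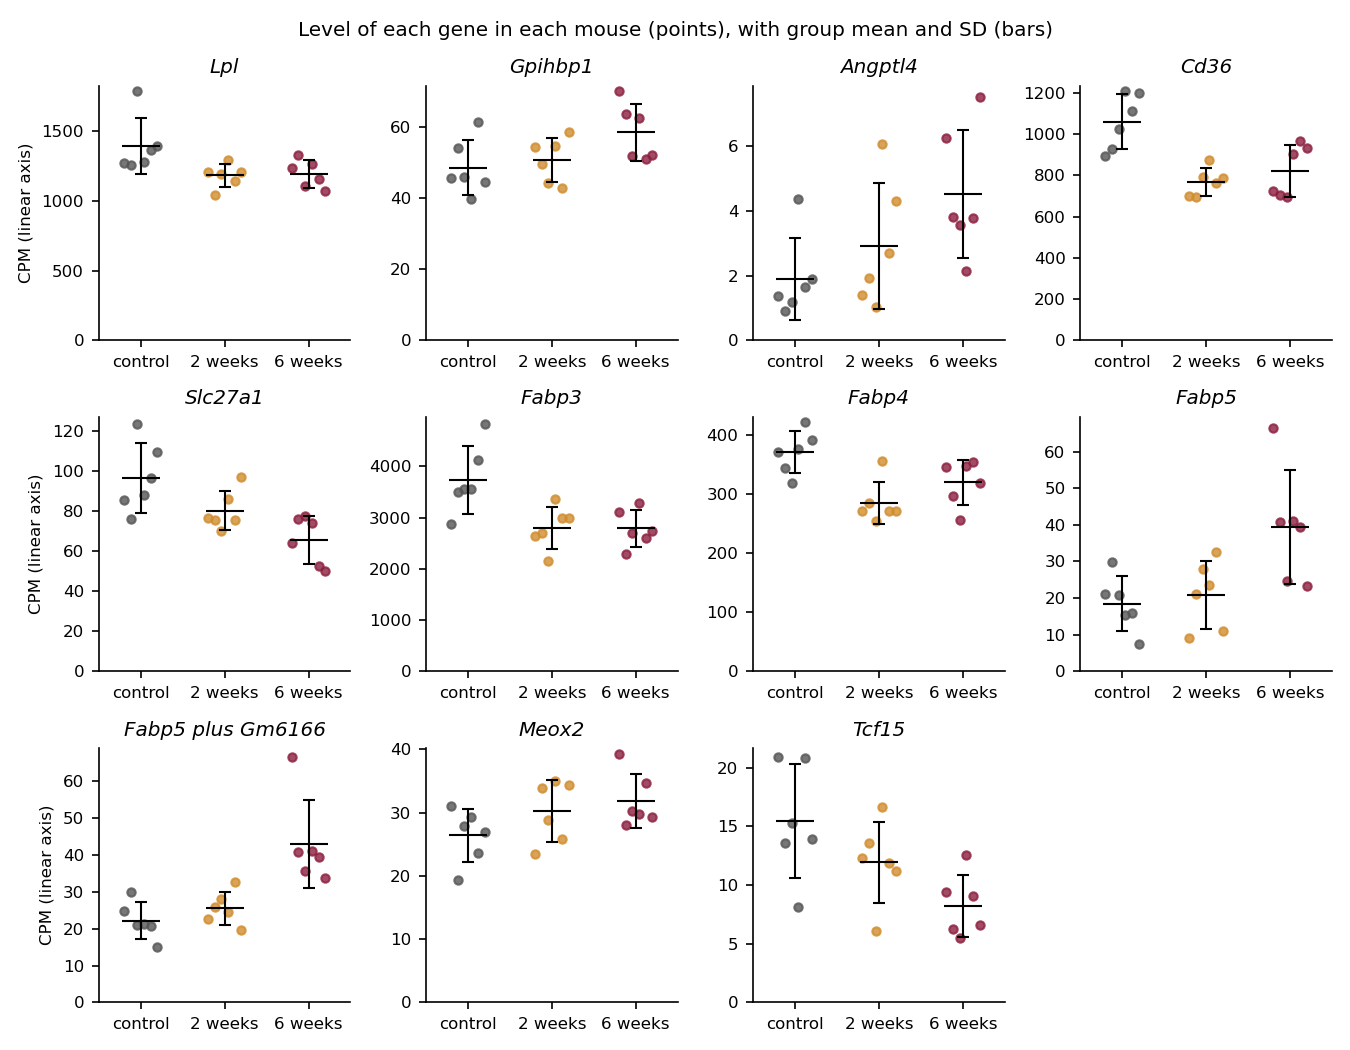
Each panel plots the level of 1 gene in CPM on a linear axis from 0 for the 6 control mice, the 6 mice at 2 weeks and the 6 mice at 6 weeks post-IR, with points for mice and bars for the group mean and SD; the last Fabp5 panel adds the counts of the pseudogene Gm6166. The Cd36 points at 2 weeks, from 695 to 875 CPM, all lie below the lowest control at 893 CPM, and the summed Fabp5 points at 6 weeks, from 33.6 to 66.5 CPM, all lie above the highest control at 29.998 CPM.

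**Figure D2:**
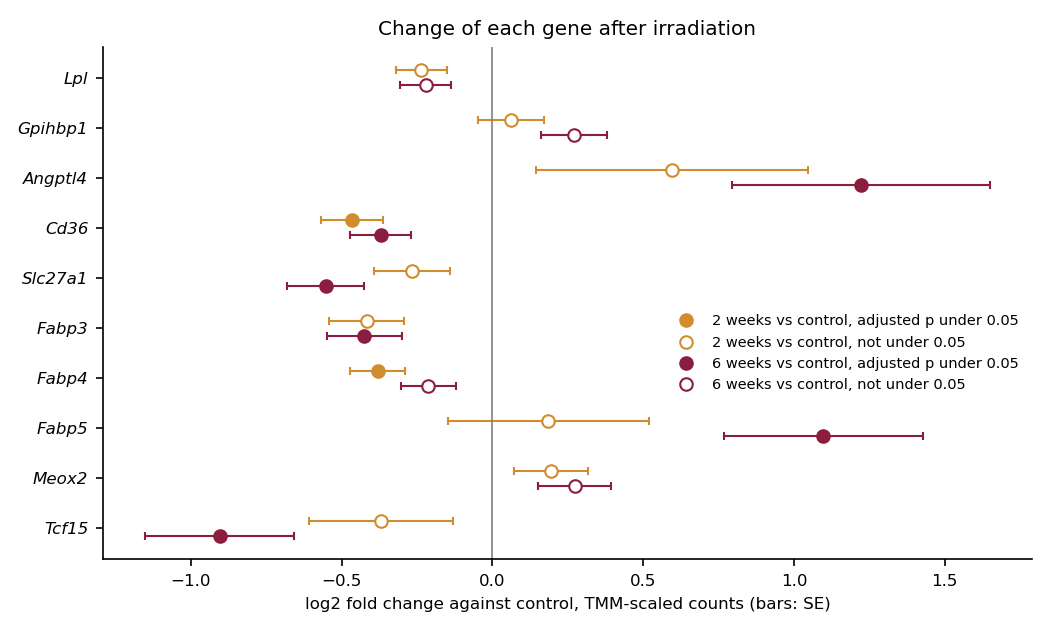
Points give the log2 fold change of each gene against the controls at 2 and 6 weeks post-IR from TMM-scaled counts, bars give the standard error, and filled points mark an adjusted p under 0.05. Cd36 lies left of 0 with a filled point at both times (-0.47 and -0.37), and Angptl4 and Fabp5 lie furthest right at 6 weeks (1.22 and 1.10) with the widest bars.

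The direction of the small changes depended on the scaling. TMM centres the bulk of the genes, and the fold changes above are relative to that centre. Scaling by library size alone moved the median of all genes to 0.15 at 2 weeks and 0.24 at 6 weeks on the log2 scale, and log2(TPM + 1) moved it to 0.18 and 0.29. Under each scaling, 6 of the 10 genes (Lpl, Cd36, Slc27a1, Fabp3, Fabp4 and Tcf15) lay below the median of all genes at 6 weeks. Against the controls themselves, library size alone called Gpihbp1, Angptl4, Fabp5 and Meox2 higher and Tcf15 lower at 6 weeks, and log2(TPM + 1) called the same 4 genes higher and none lower. At 2 weeks, library size alone called Cd36 lower and no other member, and log2(TPM + 1) called Gpihbp1 and Meox2 higher. With log2(TPM + 1) centred on each mouse's median, an alternative added after the data were seen in which the median of all genes was -0.11, Cd36, Slc27a1, Fabp3 and Tcf15 were lower and Gpihbp1, Angptl4 and Fabp5 higher at 6 weeks.

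**Figure D3:**
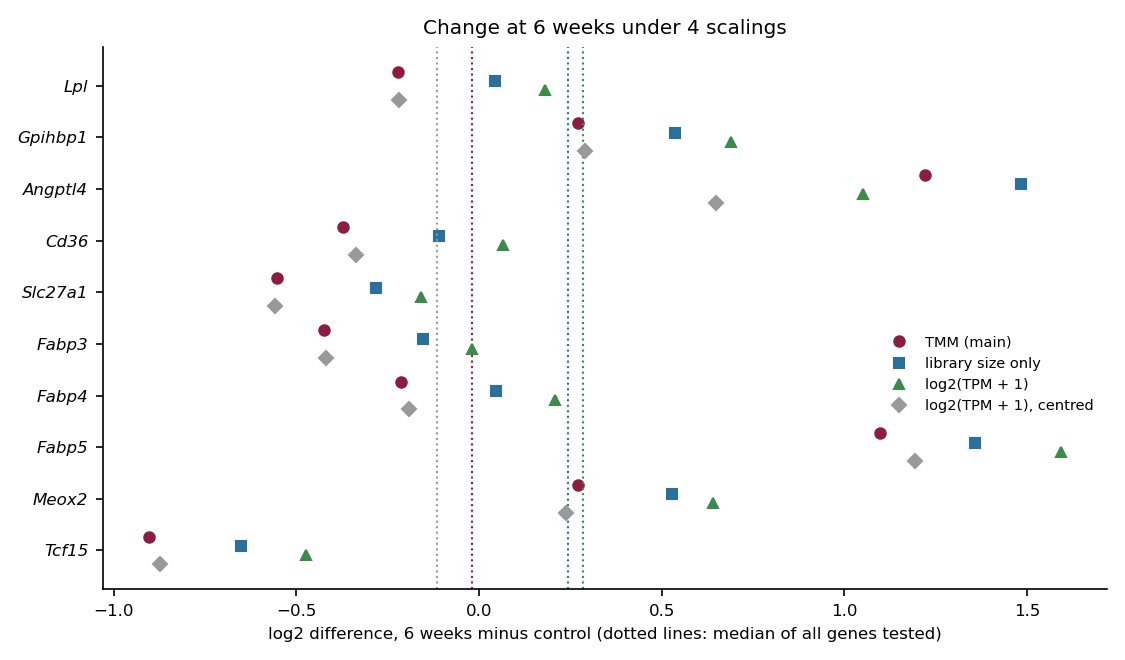
Points give the log2 difference of each gene between 6 weeks post-IR and the controls under 4 scalings, and dotted lines give the median of all genes tested under each. Tcf15 and Slc27a1 lie left of 0 under each scaling, and Angptl4 and Fabp5 lie right of 0 under each. Lpl and Fabp4 lie right of 0 with library size alone and with log2(TPM + 1), and Cd36 only with log2(TPM + 1).

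Among the genes of lipolysis, Lpl encodes lipoprotein lipase, the enzyme that frees fatty acids from triglyceride (ENSMUSG00000015568, GRCm38 chr8:68880491-68907448, plus strand). Lpl ran from 1259.8 to 1788 CPM in the controls (median 1324), from 1045 to 1298 CPM at 2 weeks (median 1202) and from 1073 to 1332 CPM at 6 weeks (median 1198). The groups overlapped, although 5 of 6 mice at 2 weeks and 4 of 6 mice at 6 weeks were below the lowest control. The log2 fold change of Lpl was -0.24 ± 0.09 (SE) at 2 weeks (edgeR adjusted p = 0.120) and -0.22 ± 0.09 at 6 weeks (adjusted p = 0.0665), and neither passed the test. DESeq2 and the edgeR fit without 6-week replicate 2 called Lpl lower at 6 weeks. Without control replicate 3, the highest control, the log2 fold change of Lpl at 2 weeks was -0.15 (edgeR adjusted p = 0.260). With all mice and library size alone, Lpl was at 0.045 on the log2 scale at 6 weeks. With log2(TPM + 1) it was at 0.025 at 2 weeks and 0.18 at 6 weeks.

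Gpihbp1 encodes the endothelial protein that holds lipoprotein lipase at the capillary wall (ENSMUSG00000022579, chr15:75596628-75599481, plus strand). Its level was 39.8 to 61.4 CPM in the controls (median 45.8), 42.9 to 58.6 CPM at 2 weeks (median 51.9) and 51.0 to 69.9 CPM at 6 weeks (median 57.2). All 6 mice at 6 weeks were above the control median and 3 were above every control. The log2 fold change of Gpihbp1 at 6 weeks was 0.27 ± 0.11, which did not pass the edgeR test (adjusted p = 0.0812), and at 2 weeks it was 0.06 ± 0.11 (adjusted p = 0.805). Without control replicate 5, the highest control, Gpihbp1 passed at 6 weeks with a log2 fold change of 0.35.

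Angptl4, a secreted inhibitor of lipoprotein lipase and a PPAR target (ENSMUSG00000002289, chr17:33773750-33781830, minus strand), rose at 6 weeks. It was the scarcest of the 10 genes, with 0.917 to 4.37 CPM in the controls (median 1.52), 1.04 to 6.08 CPM at 2 weeks (median 2.32) and 2.15 to 7.52 CPM at 6 weeks (median 3.80). All 6 mice at 6 weeks were above the control median, but only 2 exceeded the highest control. The fold change of Angptl4 at 6 weeks was 2.33 (log2 1.22 ± 0.43, edgeR adjusted p = 0.0435). This call was lost in 11 of 18 fits that each left out 1 mouse, with log2 fold changes between 1.03 and 1.68, and in the fit without a filter on low counts. At 2 weeks the log2 fold change was 0.60 ± 0.45 and did not pass (adjusted p = 0.490).

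At the membrane, Cd36 encodes the scavenger receptor that takes long-chain fatty acids into endothelial cells and cardiomyocytes (ENSMUSG00000002944, chr5:17781690-17888801, minus strand). Cd36 ran from 893 to 1207 CPM in the controls (median 1067), from 695 to 875 CPM at 2 weeks (median 776) and from 693 to 967 CPM at 6 weeks (median 813). In TMM-scaled CPM, every mouse at 2 weeks was below every control, and at 6 weeks 3 of 6 mice were. In TPM without centring the groups overlapped at 2 weeks, with 294 to 431 TPM in the controls and 276 to 390 TPM at 2 weeks. Cd36 fell by 27.6% at 2 weeks (log2 fold change -0.47 ± 0.10, edgeR adjusted p = 0.0134) and by 22.7% at 6 weeks (-0.37 ± 0.10, adjusted p = 0.0113). The edgeR difference between 2 and 6 weeks was 0.09 ± 0.10 (adjusted p = 0.650). Both edgeR calls against the controls held in all 18 fits that left out 1 mouse. On the log2(TPM + 1) scale without centring, neither passed, with -0.17 at 2 weeks (limma adjusted p = 0.189) and 0.07 at 6 weeks. In bulk tissue such as this, fewer cells of a type and less RNA per cell cannot be told apart.

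Slc27a1 encodes fatty acid transport protein 1, which takes up long-chain fatty acids and activates them (ENSMUSG00000031808, chr8:71568882-71587302, plus strand). It ran from 76.1 to 124 CPM in the controls (median 92.2), from 70.2 to 97.0 CPM at 2 weeks (median 76.2) and from 50.1 to 77.6 CPM at 6 weeks (median 69.1). At 6 weeks 4 of 6 mice were below every control and all 6 were below the control median. Slc27a1 fell by 31.8% at 6 weeks (log2 fold change -0.55 ± 0.13, edgeR adjusted p = 0.00362), the smallest adjusted p of the 10 genes. At 2 weeks the log2 fold change was -0.27 ± 0.13 (adjusted p = 0.242). With library size alone or log2(TPM + 1), Slc27a1 was not called at 6 weeks.

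Of the intracellular carriers, Fabp3 is the form of heart and skeletal muscle (ENSMUSG00000028773, chr4:130308595-130315463, plus strand). Fabp3 ran from 2877 to 4826 CPM in the controls (median 3559), from 2153 to 3352 CPM at 2 weeks (median 2839.6) and from 2282 to 3290.3 CPM at 6 weeks (median 2723). All mice at both times were below the control median, and 4 of 6 mice at 6 weeks were below every control. Fabp3 fell by 25.5% at 6 weeks (log2 fold change -0.42 ± 0.12, edgeR adjusted p = 0.0168). The value at 2 weeks was of the same size, -0.42 ± 0.12, and missed the threshold (adjusted p = 0.0591), although DESeq2 called it. The 6-week call of Fabp3 was lost without control replicate 6, at a log2 fold change of -0.34. With library size alone or log2(TPM + 1), Fabp3 was not called at 6 weeks. The gene overlaps Zcchc17 and Gm10570 on the opposite strand, with medians of 193.5 and 4 counts per mouse, and its pseudogene Fabp3-ps1, which shares 35.2% of its 31-base sequences, reached at most 11 counts.

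Fabp4, the form of capillary endothelium, adipocytes and macrophages (ENSMUSG00000062515, chr3:10204088-10208576, minus strand), fell at 2 weeks. It ran from 319 to 421 CPM in the controls (median 373), from 255 to 355 CPM at 2 weeks (median 271) and from 255 to 354 CPM at 6 weeks (median 332). At 2 weeks 5 of 6 mice were below every control, and replicate 4 with 355 CPM was inside the control range. The decrease at 2 weeks was 23.2% (log2 fold change -0.38 ± 0.09, edgeR adjusted p = 0.0227). It lost its call in 5 of 18 fits that left out 1 mouse (control replicate 5 or 6, or 2-week replicate 3, 5 or 6), with values between -0.45 and -0.34. With library size alone or log2(TPM + 1), Fabp4 was not called at 2 weeks. At 6 weeks the log2 fold change of Fabp4 was -0.21 ± 0.09, which did not pass (adjusted p = 0.0995), and the difference between 2 and 6 weeks was 0.17 ± 0.09 (adjusted p = 0.309).

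Fabp5, the form of epidermis, endothelium and macrophages (ENSMUSG00000027533, chr3:10012548-10016607, plus strand), rose at 6 weeks. As deposited, it ran from 7.42 to 29.9 CPM in the controls (median 18.4), from 9.03 to 32.6 CPM at 2 weeks (median 22.4) and from 23.4 to 66.5 CPM at 6 weeks (median 40.1). The groups overlapped, and 4 of 6 mice at 6 weeks were above every control. The fold change at 6 weeks was 2.14 (log2 1.10 ± 0.33, edgeR adjusted p = 0.0196), and the call was lost without 6-week replicate 1, the highest mouse, at a log2 fold change of 0.88.

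Fabp5 shares most of its coding sequence with a near copy. Gm6166 is a processed pseudogene of 409 bases (chr9:57483963-57484371, plus strand) that differs from the 408 coding bases of Fabp5 by 8 single-base edits. The first 200 coding bases of both are shown because a read that lies between the differing bases matches both genes, with the differing bases in capitals.
Fabp5: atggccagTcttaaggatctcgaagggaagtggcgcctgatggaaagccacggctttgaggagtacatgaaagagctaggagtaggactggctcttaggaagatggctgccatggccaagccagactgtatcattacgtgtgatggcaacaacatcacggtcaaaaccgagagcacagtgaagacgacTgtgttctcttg
Gm6166: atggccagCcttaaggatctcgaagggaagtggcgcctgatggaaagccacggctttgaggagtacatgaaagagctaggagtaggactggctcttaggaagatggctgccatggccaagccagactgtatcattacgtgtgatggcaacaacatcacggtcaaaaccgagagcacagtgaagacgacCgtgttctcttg
Counted from the first base of the start codon, the differences are T9C and T189C, with the Fabp5 base first. The share of the pair's counts given to Gm6166 ran from 0.307% to 50.2% among the controls (median 19.2%), from 0% to 60.4% at 2 weeks (median 11.2%) and from 0% to 30.8% at 6 weeks (median 0.0899%). Counts of the pair were also summed before the fit, an alternative added after the data were seen.

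Summed with Gm6166, Fabp5 ran from 14.9 to 29.998 CPM in the controls (median 21.1), from 19.6 to 32.6 CPM at 2 weeks (median 25.3) and from 33.6 to 66.5 CPM at 6 weeks (median 40.1). The coefficient of variation fell by this sum from 40.8% to 22.7% in the controls, from 44.6% to 17.4% at 2 weeks and from 39.6% to 27.9% at 6 weeks. All 6 mice at 6 weeks were then above every control and above every mouse at 2 weeks. The summed level rose 1.94-fold at 6 weeks against controls (log2 0.96 ± 0.17, edgeR adjusted p = 0.000481) and 1.68-fold against 2 weeks (log2 0.75 ± 0.17, adjusted p = 0.0199). Both calls held in all 18 fits that left out 1 mouse, with adjusted p up to 0.00162 and 0.0442. At 2 weeks against controls the summed log2 fold change was 0.21 ± 0.17 and did not pass (adjusted p = 0.529).

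The transcription factor Meox2 (ENSMUSG00000036144, chr12:37108540-37179534, plus strand), a homeobox factor of heart capillary endothelium, did not pass in any comparison. It ran from 19.4 to 31.05 CPM in the controls (median 27.4), from 23.5 to 34.9 CPM at 2 weeks (median 31.3) and from 28.0 to 39.2 CPM at 6 weeks (median 30.001). All 6 mice at 6 weeks were above the control median and 2 were above every control. Its log2 fold change was 0.19 ± 0.12 at 2 weeks (edgeR adjusted p = 0.394) and 0.27 ± 0.12 at 6 weeks (adjusted p = 0.114).

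Tcf15, the basic helix-loop-helix partner of Meox2 (ENSMUSG00000068079, chr2:152143561-152149097, plus strand), fell at 6 weeks. It ran from 8.12 to 20.9 CPM in the controls (median 14.6), from 6.12 to 16.7 CPM at 2 weeks (median 12.1) and from 5.50 to 12.5 CPM at 6 weeks (median 7.86). The groups overlapped because control replicate 4 was at 8.12 CPM, and 3 of 6 mice at 6 weeks were below every control. Tcf15 fell by 46.6% at 6 weeks (log2 fold change -0.90 ± 0.25, edgeR adjusted p = 0.0111), and this call held in all 18 fits that left out 1 mouse. With log2(TPM + 1), Tcf15 was not called at 6 weeks. At 2 weeks its log2 fold change on TMM-scaled counts was -0.37 ± 0.24 (edgeR adjusted p = 0.409).

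Other genes of the route were taken from lists of known function, chosen with earlier results of these data known. Of all genes tested, 13.5% were higher and 11.5% lower at 6 weeks, and 3.09% were higher and 1.93% lower at 2 weeks. Of 11 tested partners of lipolysis (of 13 listed), 3 rose and 2 fell at 6 weeks and none passed the edgeR test at 2 weeks. Their median log2 fold change at 6 weeks was 0.13, beside -0.02 for all genes. Vldlr, a receptor for triglyceride-rich lipoproteins, fell from 388 ± 32.5 CPM in the controls to 311 ± 31.3 CPM at 6 weeks (log2 fold change -0.32, adjusted p = 0.00458). Apoe, a lipoprotein component that macrophages also secrete, rose by 0.59 on the log2 scale (adjusted p = 0.00671), and Lmf1, the chaperone needed to fold lipoprotein lipase, fell by 0.22 (adjusted p = 0.00939).

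Of 16 tested genes for other transporters, acyl-CoA synthetases and caveolae (of 24 listed), 3 rose and 3 fell at 6 weeks, and 3 rose and 0 fell at 2 weeks. Their median log2 fold change at 6 weeks was 0.07. Of all genes, 25.0% passed at 6 weeks and 5.02% at 2 weeks. Slc27a3, a member of the family of Slc27a1, rose from 1.82 ± 0.582 CPM in the controls to 4.62 ± 1.07 CPM at 2 weeks and 4.50 ± 0.747 CPM at 6 weeks (log2 fold changes 1.32 and 1.29, edgeR adjusted p = 0.00121 and 0.000173). Acsl5, an acyl-CoA synthetase, rose by 0.66 on the log2 scale at 6 weeks (adjusted p = 0.000184), and Cavin2, a coat protein of caveolae, fell by 0.36 (adjusted p = 0.000225).

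Of 18 regulators of the route, 2 rose and 4 fell at 6 weeks, beside 25.0% of all genes that passed in either direction. At 2 weeks 1 rose and 1 fell, beside 5.02% of all genes. Their median log2 fold change at 6 weeks was -0.13. Apln, the peptide apelin made by endothelial cells, rose from 13.7 ± 3.08 CPM in the controls to 81.9 ± 27.4 CPM at 2 weeks and 199.6 ± 42.5 CPM at 6 weeks (log2 fold changes 2.57 and 3.86, edgeR adjusted p = 7.18e-09 at 6 weeks). Flt1, a VEGF receptor, fell by 0.44 at 2 weeks and by 0.67 at 6 weeks on the log2 scale (adjusted p = 0.00440 and 1.16e-05). Vegfb, a ligand of FLT1 that muscle cells make, fell by 0.37 at 6 weeks (adjusted p = 0.000122).

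Genes that act downstream of uptake were taken from lists of lipid droplet and PPAR target genes, beside 13.5% of all genes higher and 11.5% lower at 6 weeks. Of 15 lipid droplet genes, 1 rose and 5 fell at 6 weeks (median log2 fold change -0.18), and 1 rose and 1 fell at 2 weeks. Mgll, which cleaves monoglycerides, rose by 0.47 on the log2 scale at 6 weeks (edgeR adjusted p = 9.47e-05), Dgat2, which makes triglyceride, fell by 0.62 (adjusted p = 0.00158), and Lipe, hormone-sensitive lipase, fell by 0.56 (adjusted p = 0.00868). Of 13 PPAR target genes, none rose and 7 fell at 6 weeks, with log2 fold changes of the 13 between -1.01 and -0.09 and a median of -0.45. Of the 10 cardiomyocyte markers 8 also fell at 6 weeks, with a median log2 fold change of -0.44, and their part in the lower PPAR target genes was not tested. None of the PPAR target genes passed the test at 2 weeks, where the median was -0.23. Cpt1b, which passes fatty acids into mitochondria, fell by 0.38 at 6 weeks (adjusted p = 0.00146), and the oxidation enzymes Acadm and Ech1 fell by 0.62 and 0.58 (adjusted p = 0.00261 and 0.00599). Scaled by library size, the median of all genes moved to 0.24, so these log2 values are relative to the TMM centre.

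Markers of the cell types that use this route also differed between groups. Of all genes, 13.5% were higher and 11.5% lower at 6 weeks, and at 2 weeks 3.09% were higher and 1.93% lower. Of 10 cardiomyocyte markers, 0 rose and 8 fell at 6 weeks, and 1 fell at 2 weeks. Their geometric mean was 5933 ± 647 CPM in the controls, 5191 ± 363 CPM at 2 weeks and 4341 ± 272 CPM at 6 weeks (two-sided exact permutation test against controls, p = 0.0476 and 0.00433). These levels are relative to the TMM centre, and library size alone moved the median of all genes to a log2 fold change of 0.24 at 6 weeks. The geometric mean of 10 endothelial markers was 76.4 ± 4.92, 76.8 ± 4.01 and 81.9 ± 6.67 CPM (exact permutation p = 0.842 and 0.132 against controls). Within this list 1 rose and 3 fell at 2 weeks, and 4 rose and 3 fell at 6 weeks. On the log2 scale, Pecam1 rose by 0.48 and Tek fell by 0.40 at 2 weeks, and by 0.90 and 0.75 at 6 weeks.

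Of 8 markers of capillary endothelium, 5 fell at both times and none rose, beside 1.93% of all genes lower at 2 weeks and 11.5% at 6 weeks. Car4, a carbonic anhydrase on the capillary wall, had log2 fold changes of -1.65 at 2 weeks and -2.55 at 6 weeks, and Aqp1, a water channel, of -1.17 and -2.12 (edgeR adjusted p = 0.00112 or less for all 4 values). Kdr, Ly6c1 and Btnl9 had log2 fold changes of -0.00, 0.16 and 0.07 at 6 weeks and did not pass. The summed level of the 8 markers was 625 to 804 CPM in the controls, 454 to 615 CPM at 2 weeks and 423 to 533 CPM at 6 weeks. None of 8 arterial markers passed at either time.

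Macrophages and adipocytes also express Lpl, Cd36, Fabp4 and Fabp5. Of 9 macrophage markers, 8 rose at 6 weeks and 2 at 2 weeks, with sums of 169.9 to 509 CPM in the controls, 332 to 422 CPM at 2 weeks and 447 to 607 CPM at 6 weeks, and their part in the rise of Fabp5 was not tested. Of all genes, 13.5% were higher at 6 weeks and 3.09% at 2 weeks. None of 6 tested adipocyte markers (of 8 listed) passed at either time. The defining marker Adipoq was at 1.21 ± 0.875 CPM in the controls and 0.875 ± 1.10 CPM at 6 weeks, where Fabp4 was at 370.5 ± 35.7 and 319.7 ± 38.3 CPM.

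Levels of the 10 genes were set against markers of each cell type within each mouse, which removes the scaling between mice. For each gene the log2 ratio of its CPM to the geometric mean of the 10 endothelial or the 10 cardiomyocyte markers was compared between groups by two-sided exact permutation tests. Of 60 such tests (10 genes, both lists, 3 comparisons), 16 had an adjusted p under 0.05, and the smallest p that 6 against 6 mice allow is 0.00216. Leaving out 1 mouse moved this count to between 4 (without 2-week replicate 2) and 17. Of the 16 calls, 4 held in all 18 such fits, namely Fabp4 at 2 weeks relative to endothelial markers and Gpihbp1, Fabp5 and Meox2 at 6 weeks relative to cardiomyocyte markers, and 12 were lost in 1 or more. The unadjusted p of the 16 was at most 0.0130, and shares of all genes on these ratios are given at that p, over the 13877 genes with a value above 0 in every mouse. Relative to cardiomyocyte markers, 44.4% of all genes were higher at 6 weeks. Relative to endothelial markers, 3.15% were lower at 2 weeks. The share of all genes without overlap on a ratio was not counted. A lack of overlap below therefore stands without such a share, and the shares given use the looser cut.

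Relative to endothelial markers, Cd36 and Fabp4 fell at 2 weeks by 0.47 and 0.39 on the log2 scale. Both reached the smallest p that the permutation allows (adjusted p = 0.0186), and for both all 6 mice lay below all 6 controls, where 3.15% of all genes were lower at p of at most 0.0130. The Cd36 call held in 16 of 18 fits without 1 mouse. At 6 weeks, Slc27a1 (-0.66, adjusted permutation p = 0.0390), Fabp3 (-0.52, adjusted p = 0.0325) and Tcf15 (-0.997, adjusted p = 0.0400) fell and Fabp5 (1.02, adjusted p = 0.0487) rose relative to these markers, beside 12.1% of all genes lower and 8.09% higher. These calls held in 10, 10, 7 and 1 of 18 fits without 1 mouse for Slc27a1, Fabp3, Tcf15 and Fabp5. Cd36 had a difference of -0.48 and Fabp4 of -0.32 at 6 weeks, and neither passed (adjusted permutation p = 0.0584 for both). Gpihbp1 and Meox2, both endothelial genes, differed from the controls by 0.17 and 0.18 at 6 weeks (adjusted permutation p = 0.256 and 0.314). Summed with Gm6166, Fabp5 was higher by 0.85 at 6 weeks against the controls with no overlap between the groups (adjusted permutation p = 0.0144).

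The cardiomyocyte markers themselves fell by 0.45 on the log2 scale at 6 weeks against controls and by 0.26 between 2 and 6 weeks (exact permutation p = 0.00433 for each), while the median of all genes moved by -0.02 and -0.00. A gene that kept its level therefore rose on this ratio, and 44.4% of all genes were higher at 6 weeks and 26.8% between the times. Gpihbp1 and Meox2 both rose by 0.72 on the log2 scale and Fabp5 by 1.57 (adjusted permutation p = 0.0186 for each). The groups did not overlap for any of these genes, but the share of all genes without overlap on this ratio was not counted. Angptl4 rose by 1.77 with overlap (adjusted permutation p = 0.0433). The Angptl4 call held in 4 of 18 fits without 1 mouse. Cd36, Fabp3 and Slc27a1 had differences of 0.07, 0.03 and -0.11, none of which passed (adjusted permutation p = 0.700, 0.855 and 0.541). Between 2 and 6 weeks, 6 of the 10 genes were higher on this ratio. Lpl (0.27) and Gpihbp1 (0.46) did so without overlap (adjusted permutation p = 0.0186), and Cd36 (0.34), Fabp4 (0.42), Fabp5 (1.23) and Meox2 (0.34) with it. The calls of Lpl and Gpihbp1 each held in 17 of 18 fits without 1 mouse, and those of Cd36, Fabp4, Fabp5 and Meox2 in 7, 11, 4 and 7.

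**Figure D4:**
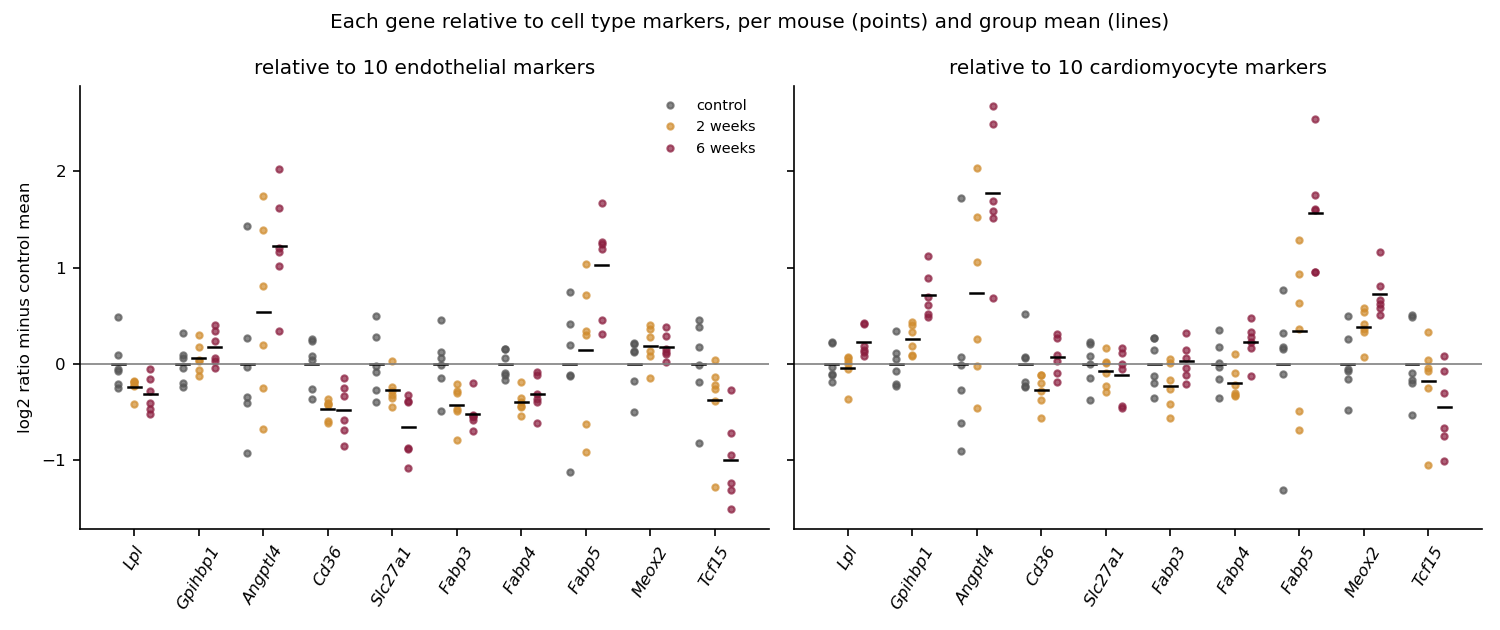
Points give for each mouse the log2 ratio of a gene to the geometric mean of 10 endothelial markers (left) or 10 cardiomyocyte markers (right), less the mean of the control mice, and lines give group means. At 6 weeks post-IR, Cd36, Slc27a1, Fabp3 and Tcf15 lie below 0 on the left (-0.48, -0.66, -0.52 and -0.997), whereas Cd36 and Fabp3 lie at 0.07 and 0.03 on the right.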

How the data were processed

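RNA-seq of heart septum from 18 mice was analysed from 2 tables of the whole series. The authors aligned reads to the GRCm38 build with STAR, quantified transcripts in Salmon (v. 1.0, per the labels) and summed them to genes, and deposited estimated counts and TPM per gene. The TPM deposited by the authors corrects for how long a transcript is and for library depth. Deposited counts were rounded, 15054 of 30072 genes reached 0.23 CPM in 6 or more mice and entered the tests, and edgeR 4.0.16 (TMM scaling, quasi-likelihood test, all 3 groups in 1 fit, R 4.3.3) gave log2 fold changes, standard errors and p-values adjusted by Benjamini-Hochberg over all genes tested. Per-mouse CPM used TMM-scaled library sizes. Coordinates came from GENCODE M21. The strand setting of the counting is not given in the sources used here. The labels call the radiation gamma rays and the tissue septum, whereas the study's methods give X-rays and ventricular tissue. No batch is labelled.

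The 10 genes and all lists were chosen with earlier results of these data known. The genes named are the 10, up to 3 genes of each pathway list with the smallest adjusted p at 6 weeks, and defining markers of each cell type list; Gm6166 was named after its values were seen. Ratios to markers and correlations were tested by exact permutation (scipy 1.17.1). Alternatives were DESeq2 1.42.0, limma 3.58.1 (voom, and log2 TPM with pseudocounts of 1 and 0.1), other scalings and filters, a Y-linked covariate, a replicate block, fits on 2 groups only and fits without each mouse. Nothing says whether mice shared cages or litters beyond littermate controls. On simulated counts for 14914 genes with known changes at 6 weeks, edgeR found 27 of 80 genes changed by 0.4, 55 of 60 changed by 1 and 58 of 60 changed by 2 on the log2 scale, with 6 false calls. No change under 0.4 was simulated, and far fewer genes were changed than passed in the real 6-week comparison. The simulation therefore does not give the rate at which changes as small as those of Lpl and Meox2 are missed. Such changes may be missed at this depth and number of mice.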

Additional observations from a re-analysis of the deposited data

Results flagged for a closer look

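In 3 of 30 groups of 6 mice (10 genes, 3 groups), 1 mouse stood apart from the other 5 by a gap that passed Dixon's test at the 95% level. Chance flags about 1 in 20 such groups. Lpl in control replicate 3 was at 1788 CPM, where the other controls ran from 1259.8 to 1398 CPM. Angptl4 in control replicate 4 was at 4.37 CPM, where the other controls ran from 0.917 to 1.90 CPM. Fabp4 in 2-week replicate 4 was at 355 CPM, where the other mice at 2 weeks ran from 255 to 285 CPM.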

How the results depend on the processing

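Of the 10 genes, 2 passed at 2 weeks, 6 at 6 weeks and 0 between the times. With a fold above 2 asked for besides, 0 passed at 2 weeks and 2 at 6 weeks. Library size alone left 1 at 2 weeks, where the cause was not tested, and Fabp5 summed with Gm6166 (an alternative chosen after seeing the data) gave 1 between the times. Fits without 1 mouse gave 1 to 3 at 2 weeks (1 without control replicate 5 or 6 or 2-week replicate 3, 5 or 6), 4 to 6 at 6 weeks and 0 between the times. The ratio tests under 0.05 numbered 4 to 17 without 1 mouse, against 16 with all: 4 without 2-week replicate 2, 7 without 6-week replicate 1, 5 or 6, 8 without 2-week replicate 1 or control replicate 3, 5 or 6, and 9 without 6-week replicate 3. The cause was not tested.

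Directions turned as follows on the log2 scale. With log2(TPM + 1) and log2(TPM + 0.1), Lpl was 0.025 and 0.025 at 2 weeks and 0.18 and 0.18 at 6 weeks, Cd36 was 0.065 and 0.065 and Fabp4 0.21 and 0.21 at 6 weeks, and Fabp3 was 0.15 and 0.15 between the times. With library size alone, Lpl was 0.045 and Fabp4 0.0470 at 6 weeks, and Fabp3 was 0.10 between the times. With TPM centred on each mouse's median, also chosen after seeing the data, Lpl was -0.000514 between the times. Without 1 mouse, the value between the times ran from -0.0195 to 0.0452 for Lpl and from -0.0737 to 0.0496 for Fabp3. With the replicate number as a replicate block, 2 genes passed at 2 weeks, 7 at 6 weeks (Fabp4 lower besides) and 0 between the times. Of 18 same-numbered pairs, 2 correlated above 0.1 (range -0.083 to 0.11) and 5 were best with their own number, so the numbers were not taken to pair mice.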

Other observations

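Markers of other cell types, taken from lists of known function, were counted with the edgeR test at an adjusted p under 0.05. Of all genes, 13.5% were higher and 11.5% lower at 6 weeks, and 3.09% were higher and 1.93% lower at 2 weeks. At 6 weeks, 2 of 6 fibroblast markers fell and none rose, 1 of 6 mural cell markers rose, 1 of 3 tested T cell markers and 1 of 2 tested B cell markers rose, and 1 of 3 endocardial and 1 of 3 tested skeletal muscle markers fell. The skeletal muscle marker that fell was Ckm, at 1649 ± 212 CPM in the controls and 1206 ± 178 CPM at 6 weeks. Acta1 and Tnni2 did not pass, and Mylpf and Myh4 had at most 4 and 1 counts and were not tested. Of 4 tested venous and of 4 lymphatic endothelial markers, 1 rose and 1 fell in each list. None of 4 atrial and none of 3 tested Schwann cell markers passed. At 2 weeks, 1 fibroblast marker fell and no marker of the other lists named here passed.

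Levels of 8 gene pairs of the route were correlated across the 6 mice of each group, giving 24 relations on log2 CPM. None passed adjustment over the 24 (exact permutation over pairings, smallest adjusted p = 0.60 for Pearson's r and 0.35 for Spearman's rho), and Pearson's r ran from -0.55 to 0.85. The highest value was that of Tcf15 and Fabp4 at 6 weeks (r = 0.85, exact permutation p = 0.025, Spearman's rho = 0.83, exact permutation p = 0.0583), and r was 0.95 without the 2 mice farthest from the median of Tcf15. Meox2 and Tcf15 had r = -0.06 in control mice and 0.28 and 0.42 at the 2-week and 6-week times (exact permutation p = 0.886, 0.660 and 0.439).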
